A study of Mus musculus with 20 samples.

Results

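Accessible chromatin around 10 mouse genes of the mesoderm programme (Mixl1, Eomes, Gsc, Evx1, Mesp1, Msgn1, Tbx6, Hand1, Nkx2-5 and Kdr) was compared between embryonic stem cells with mutant CTCF and cells with wild-type CTCF. The genes were taken by name, 10 of the 21883 protein-coding genes in the annotation used. For each gene, every peak that overlapped the gene body or the 20 kb on either side of it was taken from each of 10 peak lists. These windows held between 66 peaks (Q418R) and 87 peaks (H455R) in the mutant lists, against 95 peaks in the WT list, out of 121032 (R339Q) to 159957 (H455R) peaks in the mutant lists and 171719 in the WT list.

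The assay was Omni-ATAC-seq, which reads open DNA through the sites where a transposase can place adapters. The cells were E14Tg2a embryonic stem cells of 129/Ola origin, grown without feeders on gelatin in serum with LIF and the kinase inhibitors CHIR99021 and PD0325901. All groups shared a degron on endogenous CTCF, and 500 µM of the auxin indole-3-acetic acid, which triggers its removal, was given together with 1 µg/ml doxycycline, which switches on a stably integrated Ctcf transgene, for 2 days. The groups differed in that transgene. In 9 groups it carried a single substitution, and in the WT group it carried none. The WT cells thus also had the degron and the auxin, and how much endogenous CTCF remained in any group is not given. From general knowledge of the protein, the third zinc finger holds R339Q and R342C, the fourth holds S354F and K365T, a linker holds R377C and R377H, the sixth finger holds Q418R, and the seventh finger holds R448Q and H455R. Each genotype had 2 replicates, 20 samples in all, with 50000 cells per reaction. The authors combined both replicates into 1 peak list per genotype, which leaves no replicate spread to set a difference against, and no test was made. Whether replicates came from separate cultures, and how many clones each line represents, is not stated in the labels.

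Mesoderm forms in the gastrulating embryo when epiblast cells pass through the primitive streak under Nodal, Wnt, BMP and FGF signals. Transcription factors of the T-box, homeobox and bHLH families then divide it into paraxial, cardiac and blood vessel lineages. In embryonic stem cells these genes are silent or low, but many are held in a poised state with accessible regulatory DNA. CTCF, together with cohesin, forms chromatin loops that set which enhancers and promoters meet.

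The start sites differed in how often the lists held a peak over them. A start-site window of 250 bases before to 50 bases after the RefSeq start was available for 8 of the 10 genes (all but Mixl1 and Hand1). A peak overlapped this window in all 10 lists for Gsc, Mesp1, Nkx2-5 and Kdr, in 7 lists for Evx1, in 5 for Msgn1, in 4 for Eomes and in 0 for Tbx6. This order depends on the edges of the windows. The Msgn1 peak beside the start was in all 10 lists, but in S354F, K365T, Q418R, H455R and WT it stopped short of the window. In H455R it ended at 11208898, where the window began at 11208899. A peak 0.664 kb upstream of the Tbx6 start, outside the window, was also in all 10 lists. Among all 32851 such windows, 44.5% had a peak in all 10 lists. The upstream 250 bases of the genes at both ends of this order, and of Evx1 between them, are printed 5′ to 3′ on the strand of the gene. The first is Tbx6 at chr7:126781233-126781482 (plus strand), where capitals mark a TATA box (TATAAA). Eomes follows at chr9:118477939-118478188 (plus strand), which held none of the 5 motifs searched and so has no capitals. Variants of TATAAA, such as the tatataag near the 3′ end of the Eomes sequence, were not searched. Evx1 is at chr6:52313248-52313497 (plus strand), where capitals mark a T-box motif (GGTGTG, here read from the other strand). Kdr is at chr5:75978456-75978705 (minus strand), where capitals mark AGNNGGC, a loose form of the core of the CTCF motif in which N is any base. All coordinates are GRCm38.p6, the patch release of mm10, and the sequences are from RefSeq.
Tbx6: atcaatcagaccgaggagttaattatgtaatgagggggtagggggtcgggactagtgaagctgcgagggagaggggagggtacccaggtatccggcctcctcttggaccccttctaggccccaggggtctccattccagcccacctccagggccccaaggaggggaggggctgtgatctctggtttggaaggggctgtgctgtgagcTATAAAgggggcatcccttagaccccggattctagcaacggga
Eomes: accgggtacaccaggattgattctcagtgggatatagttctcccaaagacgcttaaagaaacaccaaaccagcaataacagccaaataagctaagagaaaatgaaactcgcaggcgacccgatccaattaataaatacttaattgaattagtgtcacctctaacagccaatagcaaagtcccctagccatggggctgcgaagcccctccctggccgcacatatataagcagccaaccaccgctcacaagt
Evx1: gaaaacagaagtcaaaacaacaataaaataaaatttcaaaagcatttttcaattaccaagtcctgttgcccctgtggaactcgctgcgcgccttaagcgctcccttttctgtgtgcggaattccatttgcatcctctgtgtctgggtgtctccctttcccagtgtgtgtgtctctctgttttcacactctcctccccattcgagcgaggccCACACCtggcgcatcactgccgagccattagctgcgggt
Kdr: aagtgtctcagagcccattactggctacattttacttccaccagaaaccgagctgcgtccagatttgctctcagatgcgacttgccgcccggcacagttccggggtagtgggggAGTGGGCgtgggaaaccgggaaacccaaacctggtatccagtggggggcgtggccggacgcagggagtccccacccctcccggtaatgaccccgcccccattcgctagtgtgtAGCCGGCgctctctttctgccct

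Each motif was searched on both strands over the whole window of each of the 8 genes, and overlaps between motifs were allowed. TATAAA was in the windows of Gsc and Tbx6, 2 of 8, against 13.6% of all windows. GGTGTG was in those of Evx1 and Mesp1, 2 of 8 against 19.0%. The TCF/LEF core CTTTGA was in 3 of 8 against 16.0%, the SMAD element CAGAC in 4 of 8 against 49.6%, and AGNNGGC in 6 of 8 against 59.8%. These are letter matches and not binding sites. The median GC content was 53.8% in the member windows, against 52.7% in all windows. The Kdr and Gsc windows, with a peak in every list, had 60.7% and 60.3% GC. The Tbx6 window, with a peak in no list, had 57.7%, and the Eomes window 47.3%.

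The windows kept most of their accessible sites in the mutant lists, and what was missing was mostly weak. Peaks of all lists that touched were merged into 106 sites, of which 50 were in all 10 lists (47.2%, against 36.5% of all sites genome-wide). The strength of a peak is given as its percentile within its own list, where 100 is the strongest, from the enrichment value the authors deposited for each peak. The position of a site is that of its midpoint, relative to the RefSeq start in the direction of the gene. Over the 9 mutants together, 211 of 855 pairs of a WT window peak and a mutant list had no overlapping mutant peak, 24.7% against 26.5% of all WT peaks, and 28.0% when all WT peaks were weighted to the strength of the window peaks. Among WT peaks in the stronger 50% of the WT list, 21 of 414 pairs were missing (5.07%, against 6.25% of all such peaks). Among weaker ones 190 of 441 were missing (43.1%, against 46.8%). Of the pairs in the strongest 20%, 0 of 126 were missing, which allows a share of up to 2.38%, against 0.390% of all such peaks. That limit is too low, because the pairs come from 14 WT peaks. Of the 95 WT peaks, 53 were found in all 9 mutant lists (55.8% against 48.5%) and 4 in none (4.21% against 5.42%). The shares missing from the windows lay near those of all peaks, and the pairs share the same 95 WT peaks. With every list reduced to its 121032 strongest peaks, 88 of 612 pairs were missing (14.4%, interval 11.7% to 17.4%, against 18.3% of all). This interval is too narrow, because the pairs share WT peaks.

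**Figure D1:**
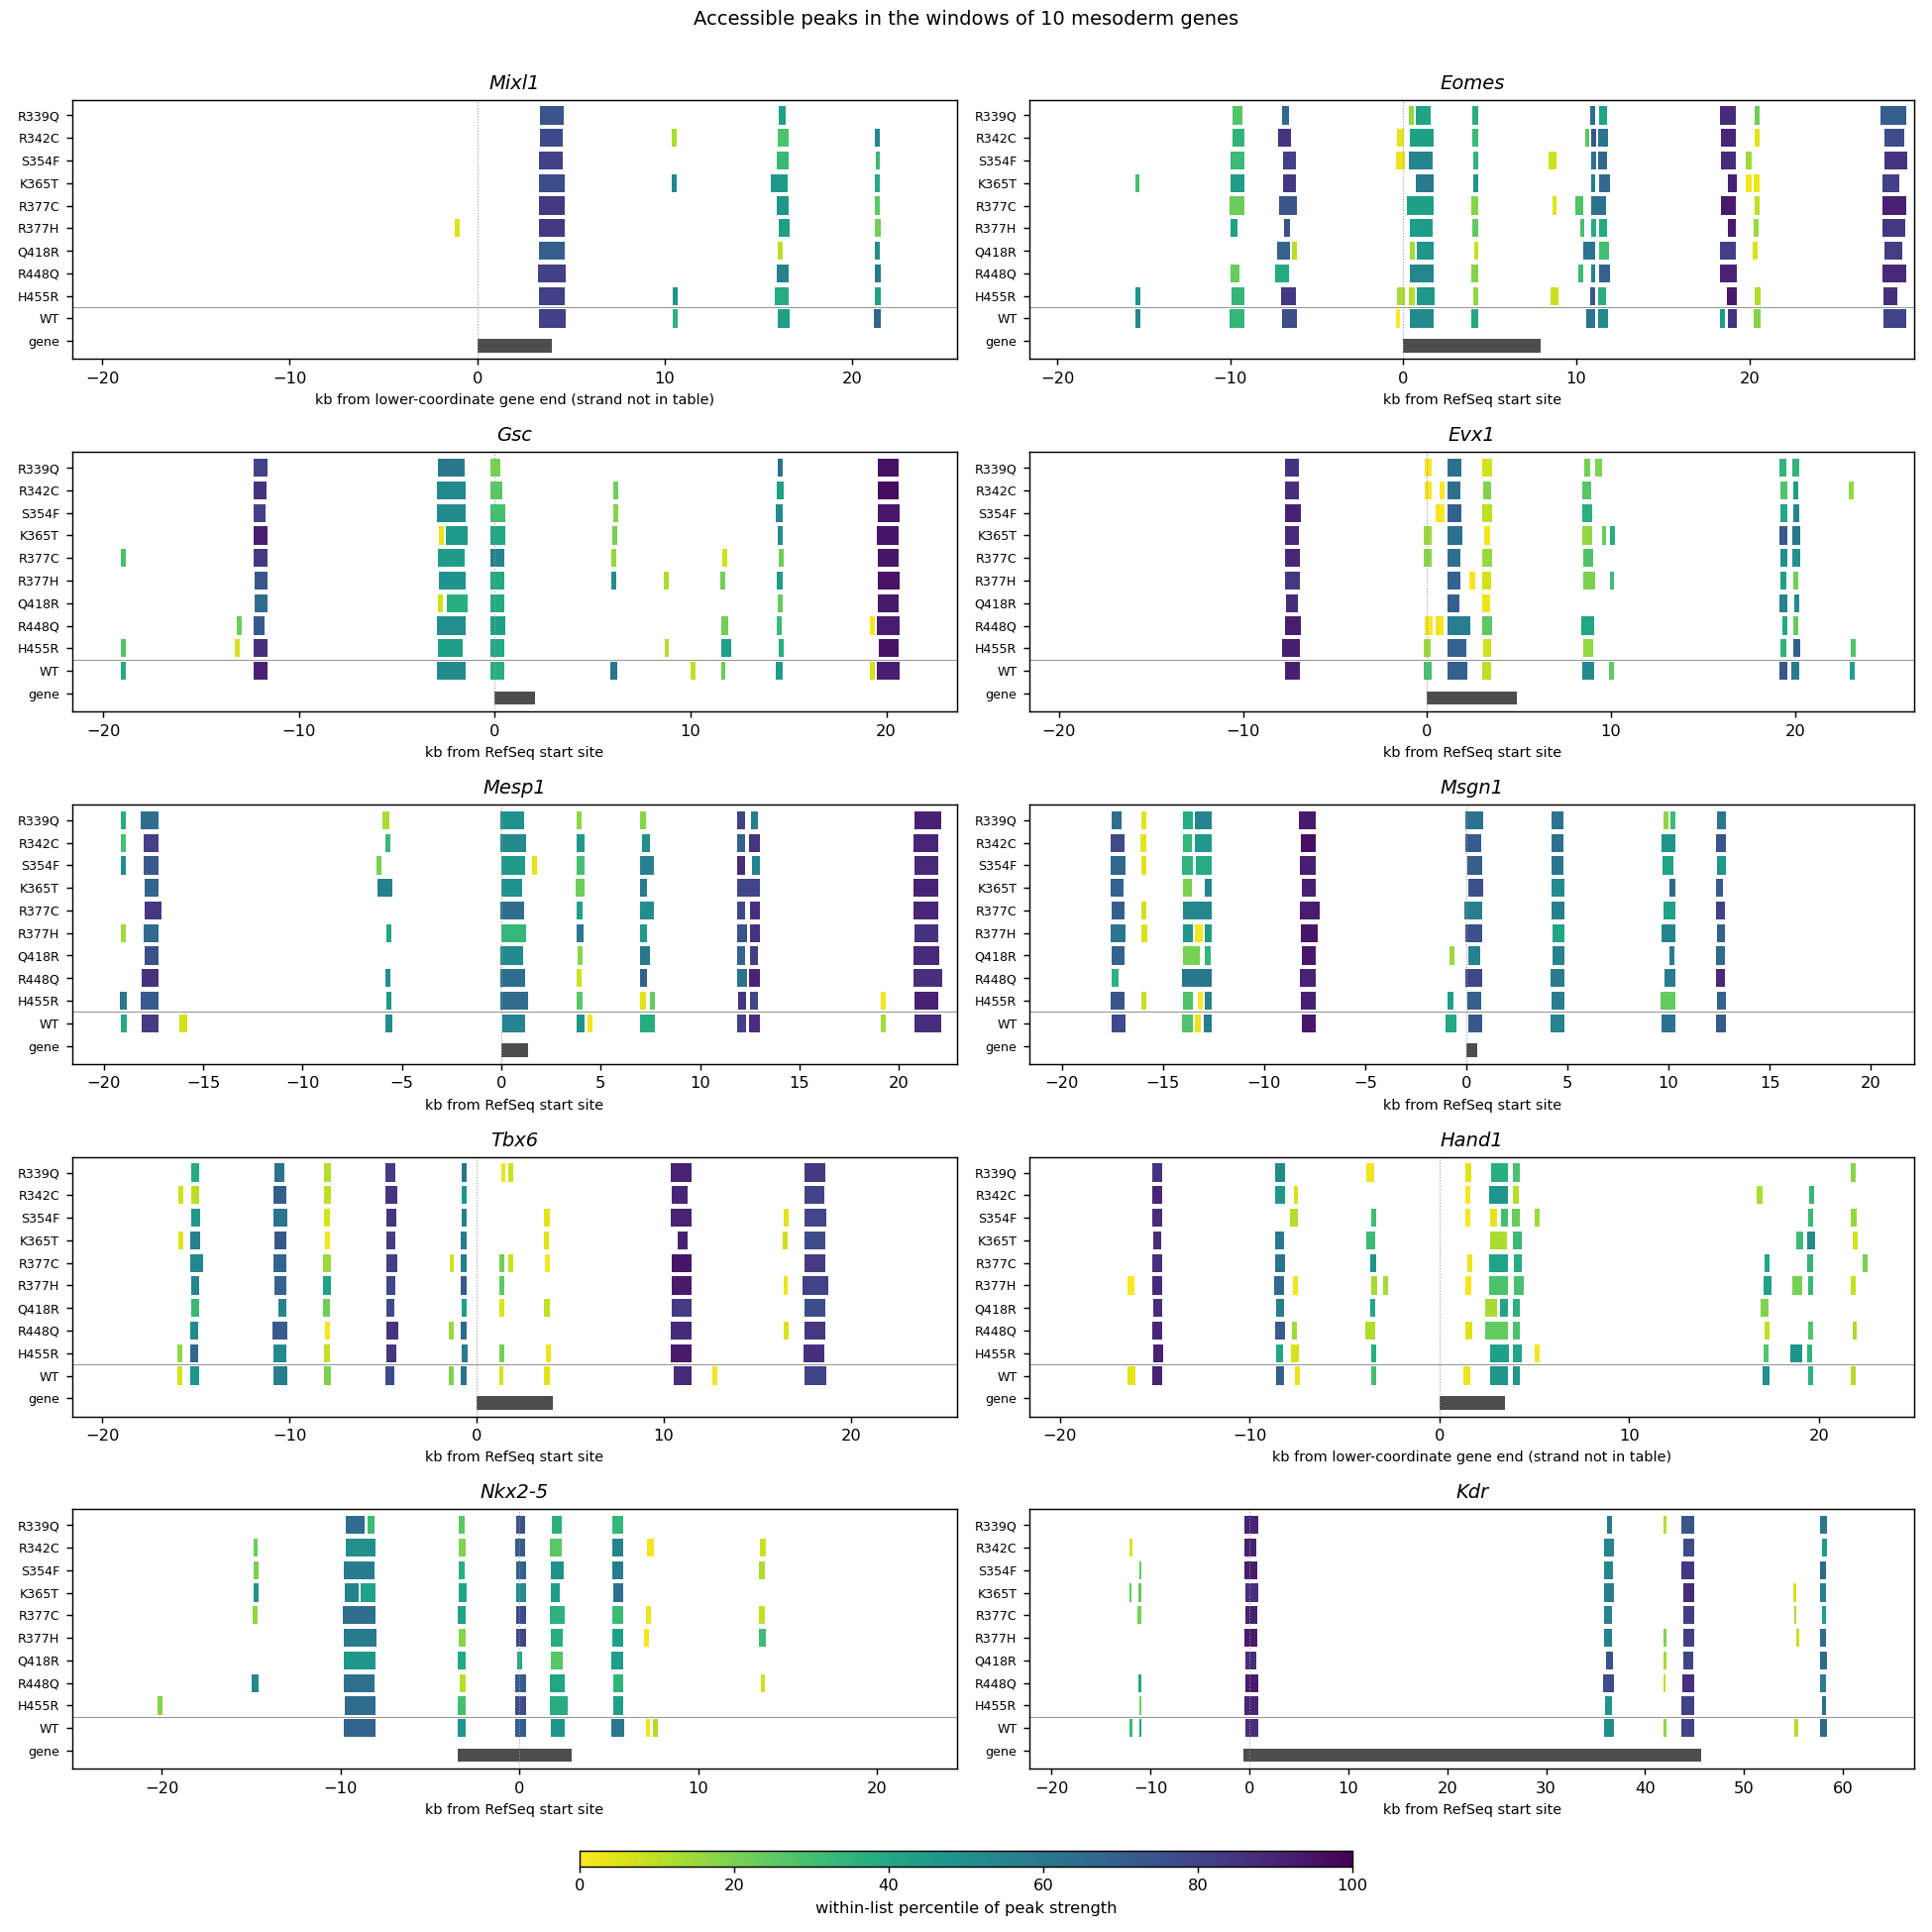
Peaks of the 10 windows in each list, mutants above WT, with distance in kb along the x axis and the gene body as a grey bar. Colour is the percentile of the peak within its list. The dark peaks run through all 10 lists at most positions, and the gaps lie mainly among the pale ones.

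In missing peaks, every mutant lay near its own background. The WT window peaks missing from a mutant list numbered 31 of 95 for Q418R (32.6%, against 30.8% of all WT peaks), 28 for R339Q (29.5% against 35.1%), 27 for S354F (28.4% against 24.3%), 23 for K365T (24.2% against 28.3%), 23 for R448Q (24.2% against 27.7%), 21 for R342C (22.1% against 26.1%), 21 for R377C (22.1% against 20.9%), 20 for R377H (21.1% against 26.0%) and 17 for H455R (17.9% against 19.3%). Each background lay within the exact 95% binomial interval of its mutant, the widest of which ran from 23.4% to 43.0% (Q418R). These intervals cover counting error only. Mutant window peaks with no WT overlap made up 52 of 692 (7.51%, against 10.5% of all mutant peaks). With lists of equal size they made up 51 of 575 (8.87%, against 17.5%), with an interval of 6.68% to 11.5% that is too narrow because sites recur across lists. In the full lists they were 0 of 66 in Q418R, which allows a share of up to 4.55% where the background was 7.97%, and 3 of 71 in R339Q (4.23% against 7.14%). In K365T and R342C they were 5 of 78 (6.41% against 8.94%) and 5 of 77 (6.49% against 9.77%), and in R448Q and H455R 6 of 75 (8.0% against 14.8%) and 7 of 87 (8.05% against 13.1%). The shares were highest in the R377C list with 7 of 77 (9.09% against 10.8%), the R377H list with 9 of 84 (10.7% against 12.1%) and the S354F list with 10 of 77 (13.0% against 8.82%). S354F was the mutant list whose share lay above its background. For Q418R the background lay above the limit given and above its exact interval, which ran up to 5.44%. For the other 8 mutants the background lay within the exact interval. These values changed with the length of the lists. With lists of equal size Q418R had 4 of 62 (6.45% against 17.2%), R339Q had 12 of 71 (16.9% against 19.9%) and S354F had 6 of 64 (9.38% against 16.3%), and the background lay above the exact interval for R342C, R377C, Q418R, R448Q and H455R. Fewer cells with an open site and less signal per cell cannot be told apart in these bulk lists.

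**Figure D2:**
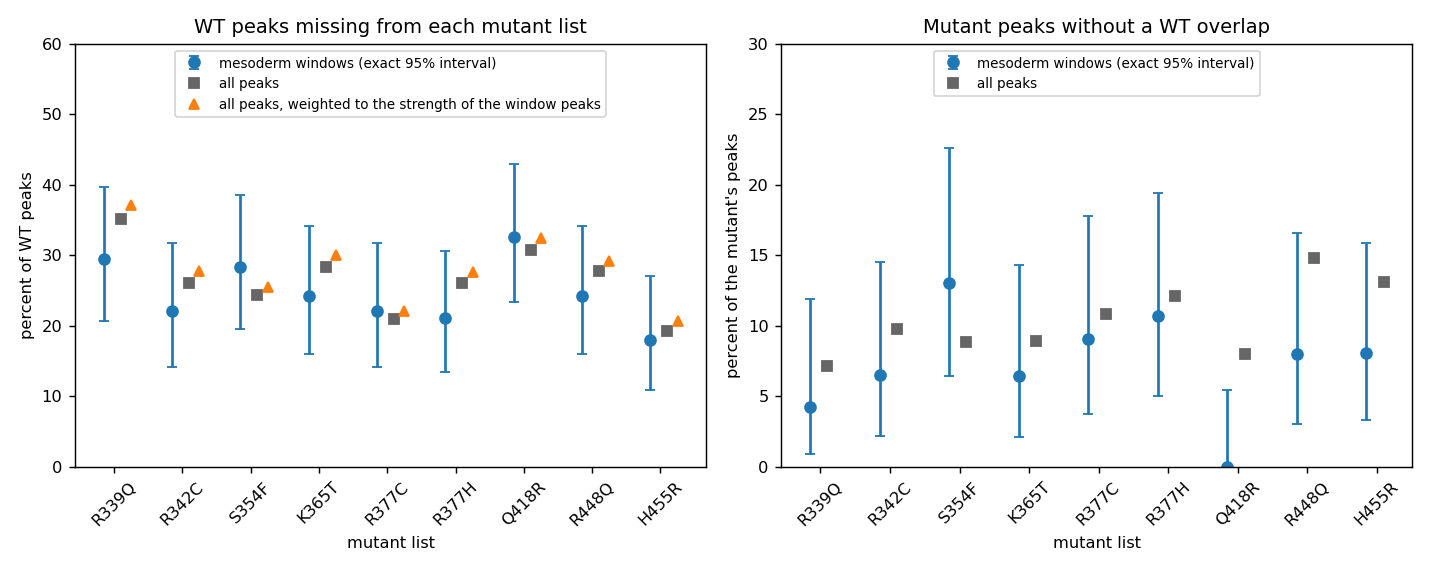
Percent of WT window peaks missing from each mutant list (left) and of mutant window peaks with no WT overlap (right). Circles with exact 95% intervals are the mesoderm windows, squares are all peaks, and triangles are all peaks weighted to the strength of the window peaks. On the left every square lies inside its interval.

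Among the 644 pairs with a shared peak, 84 had a mutant percentile at least 20 points below the WT percentile (13.0%, against 15.5% of all shared peaks) and 22 were at least 20 points above (3.42% against 5.83%). In 6 of the 22 at Eomes and 5 at Msgn1, 1 wider mutant peak also covered a stronger WT peak beside the one compared. The 5 were at the Msgn1 WT peak at 11222076 to 11222374. The same held for R377C and R448Q at the Msgn1 WT peak at 11222480 to 11222980. The split into lower and higher pairs changed with the length of the lists. With lists of equal size, 36 of 524 pairs stood lower (6.87%, against 10.3% of all) and 63 stood higher (12.0% against 10.8%). At the ends of the 10 genes, within 1 kb of either annotated end, 20 of 144 pairs were missing (13.9%, against 13.1% of all gene-end peaks). H455R lacked 0 of these 16 WT peaks, which allows a share of up to 18.8%, where 10.1% of all gene-end peaks were missing, and R377H lacked 4, where 13.3% were.

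**Figure D3:**
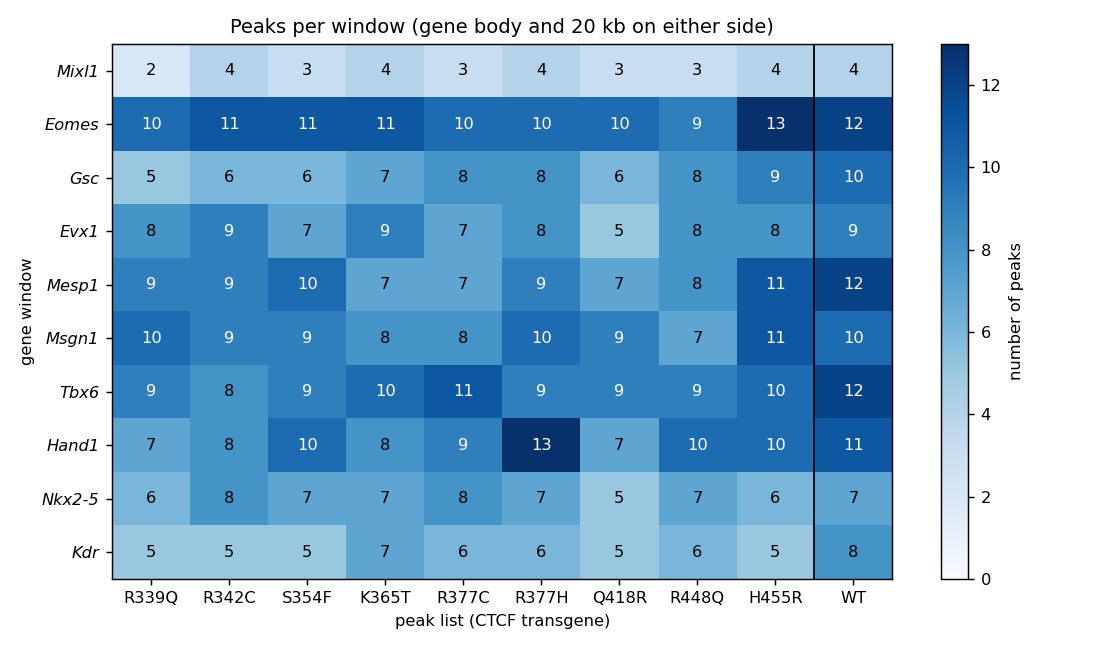
Number of peaks in each window (rows) and list (columns, mutants left of WT). The count for Evx1 was 5 in Q418R and 9 in WT, and that for Hand1 was 13 in R377H and 11 in WT.

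The first genes considered were those of the early primitive streak. Mixl1 encodes a homeobox factor of mesendoderm, and its strongest peak lay at its own annotated end. That peak had percentiles of 70.2 (Q418R) to 83.1 (R377C) in the mutants, median 80.9, against 80.7 in WT. All 10 lists thus placed it among their strong peaks. A second strong site, 17.3 kb from the gene, was absent in R339Q and had percentiles of 21.8 (R377H) to 59.6 (R448Q) in the other 8 mutants, median 40.7, against 67.5 in WT. Every mutant list that held it placed it lower than WT did, also with lists of equal size. It was taken because it was strong in WT and missing from a mutant, and that choice itself favours lower mutant values. The same holds for the sites taken in this way at Eomes, Gsc, Evx1, Mesp1 and Hand1 below. How often all WT peaks chosen so stand lower in every mutant was not counted. Mixl1 had 7 of 36 pairs missing, against 7.52 expected from the strength of its peaks. Within 2.5 Mb on either side of Mixl1, the K365T list held a larger share of its peaks than the median of the other lists (log2 0.21), and the part of this in the K365T values was not tested.

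Eomes encodes a T-box factor needed for mesoderm and definitive endoderm. Its strongest site, 18.8 kb downstream of the start, had percentiles of 81.9 (Q418R) to 93.7 (H455R) in the mutants, median 90.6, against 85.5 in WT. Q418R was the 1 mutant below WT there, and with lists of equal size none of the 9 was. Its strongest gene-end site, centred 1.03 kb downstream, had 42.1 (R339Q) to 59.3 (K365T), median 46.4, against 51.8 in WT. The site at the start itself was weak and was found in R342C (3.85), S354F (3.08), H455R (12.5) and WT (0.508). The WT peak (118477744 to 118477943) touched only the upstream edge of the start-site window and did not reach the start at 118478189. The site 15.4 kb upstream was the strong site of the 10 windows that most mutants lacked. It had percentiles of 29.5 in K365T and 48.2 in H455R, against 52.8 in WT, and was absent in the other 7 mutant lists. At the site 6.78 kb upstream the R448Q list stood apart, at 39.4, where the other mutants ran up to 84.9 (R342C) and WT had 76.5. Eomes had 19 of 108 pairs missing, against 26.5 expected. Of its 89 shared pairs 8 were at least 20 points lower and 6 higher, and with lists of equal size 1 of 77 was lower and 20 were higher (26.0%, against 10.8% of all). All of the 6, and 6 of the 20, came from the WT peak at 118496482 to 118496801. In those mutant lists 1 wider peak also covered the stronger WT peak beside it, so no rise in strength can be read there.

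Gsc encodes a homeobox factor of the organizer. Its strongest site, 20.1 kb downstream of the start, had percentiles of 91.9 (R448Q) to 97.2 (R342C) in the mutants, median 94.5, against 91.6 in WT. No mutant was below WT there. The start-site peak had 20.6 (R339Q) to 55.5 (R377C), median 39.3, against 37.1 in WT. The site 6.09 kb downstream was absent in R339Q, Q418R, R448Q and H455R. It had percentiles of 21.7 in R342C, 18.2 in S354F, 20.4 in K365T, 15.3 in R377C and 50.9 in R377H, against 61.7 in WT. The lists without it thus came from mutants of 3 different zinc fingers, and those with it all placed it lower than WT, a direction that the choice of the site favours. Gsc had 33 of 90 pairs missing (36.7%), the highest share of the 10 genes, against 31.2% expected from strength.

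Evx1, a homeobox gene of the posterior streak, had the largest share of lowered pairs of the 10 genes. Of its 63 shared pairs 20 were at least 20 points lower (31.7%, against 15.5% of all shared peaks) and 0 at least 20 points higher (against 5.83%). At equal list size 12 of 45 were lower (26.7% against 10.3%) and 0 higher. These pairs are not independent, because each WT peak was set against all 9 mutant lists. The sites 19.4 kb and 9.05 kb downstream gave 7 and 6 of the 20. At equal list size the 19.4 kb site gave 7 of the 12. The strongest Evx1 site, 7.36 kb upstream, had percentiles of 84.2 (R377H) to 92.1 (R448Q), median 88.7, against 91.3 in WT. That site was among the strong ones in every list. The site 19.4 kb downstream (chromosome 6, 52332651 to 52333087) had 34.6 in R339Q, 28.1 in R342C, 40.0 in S354F, 71.9 in K365T, 49.9 in R377C, 43.8 in R377H, 54.3 in Q418R, 39.4 in R448Q and 35.2 in H455R, against 73.3 in WT. All 9 mutants were below WT, 7 of them by 20 points or more. At equal list size 8 were below WT, the same count of 7 by 20 points or more, and K365T (67.6) was above WT (62.1). K365T was the mutant closest to WT on both scales.

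Between these, the Evx1 site 9.05 kb downstream of the start was absent in Q418R and had percentiles of 16.4 (H455R) to 41.3 (R448Q) in the other 8 mutants, median 24.5, against 52.3 in WT. All 8 were below WT. The start-site peak, the strongest WT gene-end peak of Evx1, had 0.462 (R339Q) to 17.8 (R377C) in 6 mutants, median 8.19, was absent in S354F, R377H and Q418R, and had 29.5 in WT. With lists of equal size the WT list no longer held this peak, so it could not be compared there. In 2.5 Mb on either side of Evx1 the Q418R list held 381 peaks, a share that was lower than the median of the other lists (log2 -0.40). The part of this shift in the Q418R values, 5 window peaks against 9 in WT, was not tested. In all, 18 of 81 pairs were missing, against 20.9 expected.

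The next group acts in paraxial and cardiac mesoderm. Mesp1 encodes a bHLH factor of early cardiac progenitors, and its strongest site lay 21.5 kb downstream, inside Wdr93. There the mutants had percentiles of 85.6 (R377H) to 91.0 (R339Q), median 89.4, against 87.4 in WT. Its own start-site peak had 33.4 (R377H) to 65.2 (H455R), median 52.2, against 55.6 in WT. The intergenic site 5.89 kb upstream was absent in R377C and Q418R and had 12.6 (R339Q) to 57.0 (K365T) in the other 7, median 40.0, against 50.8 in WT. The S354F peak at that site did not overlap the WT peak. The neighbouring Mesp2, a bHLH gene of somite segmentation, had 3 gene-end sites in WT, each compared with 9 mutant lists. Of these pairs 13 were missing, where 13.1% of all gene-end pairs were. The strongest Mesp2 site was in every list, with percentiles of 64.1 (R339Q) to 85.8 (R448Q), median 72.6, against 82.6 in WT. Another was absent in K365T, R377C, Q418R and R448Q and had 14.4 (R377H) to 60.4 (H455R) in the other 5, against 39.2 in WT. The last was weak and found in WT alone (6.56), so it made up 9 of the 13 missing pairs. Mesp1 had 33 of 108 pairs missing, against 29.0 expected.

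Msgn1 encodes a bHLH factor of presomitic mesoderm. It had 8 of 90 pairs missing (8.89%), the lowest share of the 10 genes, against 18.0 pairs expected from strength. The weak WT peak at 11222076 to 11222374 (3.03) counted as found in 8 mutants. In R339Q, R342C, S354F, R377C, Q418R and R448Q this was through a wider peak that also covered a stronger WT peak. The Msgn1 site 7.76 kb upstream was the strongest in the 10 windows in WT. Percentiles there were 90.4 (R448Q) to 96.2 (R342C) in the mutants, median 92.5, against 94.0 in WT. The strongest gene-end site had 55.9 (Q418R) to 79.2 (R448Q), median 70.5, against 72.9 in WT. At 17.2 kb upstream R448Q was lowest, at 35.7, where the mutants had a median of 68.0 and WT had 77.5. A weak site 15.9 kb upstream was found in 6 mutants, at 4.04 (R342C) to 8.43 (H455R), and was absent in K365T, Q418R, R448Q and WT. It lay at the bottom of every list that held it.

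Tbx6 encodes a T-box factor of paraxial mesoderm and sits in a gene-dense window with Mapk3, Gdpd3, Ypel3, Ppp4c and Aldoa. Its strongest site was at the end of Ppp4c, a phosphatase subunit gene, with percentiles of 82.8 (Q418R) to 94.2 (R377C) in the mutants, median 90.6, against 87.9 in WT. The strongest peak near an end of Tbx6 itself, 0.664 kb upstream, had 43.8 (Q418R) to 71.9 (R377H), median 58.3, against 60.6 in WT. Both were in every list. Tbx6 had 30 of 108 pairs missing against 36.0 expected, and of its 78 shared pairs 1 was at least 20 points lower and 1 at least 20 points higher. The counts were 0 of 53 lower and 9 higher with lists of equal size.

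**Figure D4:**
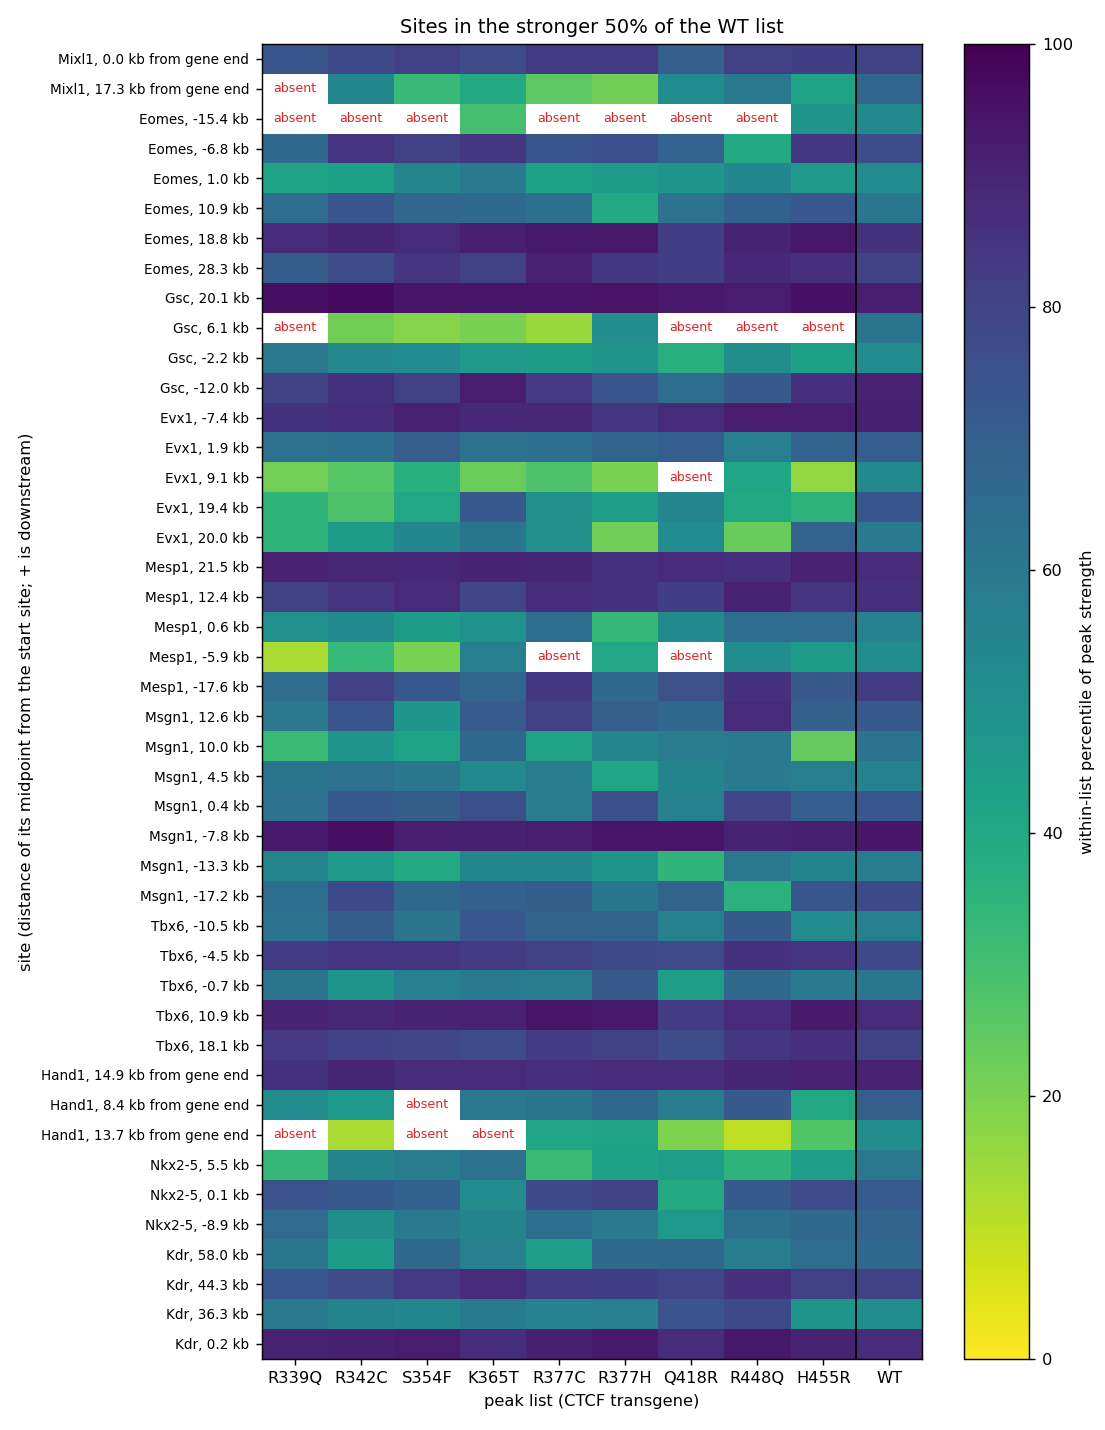
Sites of the stronger 50% of the WT list in the 10 windows (rows, with distance from the start site, or from the nearer gene end for Mixl1 and Hand1) in each list (columns, mutants left of WT). Colour is the within-list percentile and white cells marked absent have no peak. Of 44 sites, 37 were in all 10 lists, and absent cells lie in the windows of Mixl1, Eomes, Gsc, Evx1, Mesp1 and Hand1.

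The last genes act in lateral mesoderm, heart and vessels. Hand1 encodes a bHLH factor of lateral and extraembryonic mesoderm. Its strongest site, 14.9 kb from the gene, had percentiles of 85.4 (R339Q) to 90.9 (H455R), median 87.7, against 90.7 in WT. Near its end the strongest gene-end site had 12.2 (K365T) to 47.6 (R342C), median 36.5, against 47.7 in WT. The other end site had 10.7 (R342C) to 41.2 (H455R), median 29.2, against 47.3 in WT. All 9 mutants were below WT at both, but this direction changed with the length of the lists. At equal size, 4 of the 8 mutants with a peak were above WT at the first site, and R339Q and Q418R were above it at the other. A strong site 8.41 kb from the gene was absent in S354F and had 40.5 (H455R) to 71.6 (R448Q) in the other 8, median 58.8, against 69.9 in WT.

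On the other side of Hand1, the site 13.7 kb from the gene was absent in R339Q, S354F and K365T. It had percentiles of 12.7 in R342C, 40.9 in R377C, 42.5 in R377H, 19.3 in Q418R, 9.73 in R448Q and 27.0 in H455R, against 50.8 in WT. Every mutant with the site was below WT, and the R342C peak there did not overlap the WT peak. There 4 mutants had an overlapping peak with lists of equal size, of which R377H (30.4) was level with WT (30.2) and 3 were below. Hand1 had 27 of 99 pairs missing, against 37.2 expected. R377H lacked none of the 11 WT peaks and held 13 peaks. In 2.5 Mb on either side, the R377H list held a larger share of its peaks than the median of the other lists (508 peaks, log2 0.33), and the part of this in the R377H counts was not tested.

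Nkx2-5 encodes a homeobox factor of cardiac progenitors. Its strongest site was over its RefSeq start, with percentiles of 38.9 (Q418R) to 79.6 (R377H) in the mutants, median 71.7, against 71.1 in WT. Q418R was the lowest list there. The strongest gene-end site, 3.22 kb upstream of that start, had 10.6 (R448Q) to 42.1 (K365T), median 29.8, against 47.9 in WT. The 9 mutants were all below WT there, but with lists of equal size S354F, K365T, R377C and Q418R were above it and 4 were below. Of the 61 mutant peaks at Nkx2-5, 11 had no WT overlap (18.0%, against 10.5% of all mutant peaks), the highest share of the 10 genes. It was 5 of 51 with lists of equal size (9.80% against 17.5%) and no longer the highest. A site 13.6 kb downstream had 8.43 in R342C, 12.2 in S354F, 8.87 in R377C, 31.4 in R377H and 7.03 in R448Q, and was absent in the other 4 mutants and in WT. A site 14.8 kb upstream had 22.9 in R342C, 20.3 in S354F, 47.0 in K365T, 16.5 in R377C and 52.9 in R448Q, and was absent in the other 4 mutants and in WT. R342C, S354F, R377C and R448Q held both sites. Of the WT peaks, 14 of 63 pairs were missing against 17.3 expected.

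Kdr encodes a receptor for VEGF that marks blood and vessel progenitors. Its strongest site was over its start, with percentiles of 86.8 (K365T) to 93.7 (R448Q) in the mutants, median 91.2, against 87.4 in WT, and this start was in the upper part of every list. The site at the other end of the gene had 72.8 (R339Q) to 88.0 (K365T), median 81.4, against 80.2 in WT. Kdr had 0 of 50 mutant peaks without a WT overlap, which allows a share of up to 6% where the background was 10.5%. It was 3 of 44 with lists of equal size (6.82% against 17.5%). The limit of 6% is too low, because sites recur across lists. Of the WT pairs at Kdr, 22 of 72 were missing against 19.3 expected.

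Other genes of the mesoderm programme were counted by peaks at their ends. All 10 ligands and receptors, among them Nodal, Wnt3, Bmp4 and Fgf8, had such a peak in all 10 lists, and 14 of 216 pairs of a WT gene-end peak and a mutant were missing (6.48%). All 6 transducers, among them Foxh1 and Lef1, which pair with SMAD proteins and β-catenin, also had one in all lists, with 13 of 99 pairs missing (13.1%). Of 14 other mesoderm transcription factors 12 had one in all lists, with 29 of 207 pairs missing (14.0%), and Meox1 and Gata4 had none in any list. Of 5 surface and segmentation genes 4 had one in all lists, with 3 of 72 pairs missing (4.17%), and Pdgfra had none. The share of missing pairs was 13.1% over all gene-end peaks. The share of all genes with such a peak in every list is not given here, so the gene counts show no trait of the mesoderm programme.

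Cell type markers were counted in the same way. All 7 embryonic stem cell markers, among them Pou5f1, Nanog and Sox2, had a gene-end peak in all 10 lists. So did 4 of 7 fibroblast, 1 of 5 cardiomyocyte and 4 of 4 endothelial markers, so the counts did not separate the cell types. The strongest WT end peaks of the stem cell markers had percentiles of 3.78 (Pou5f1) to 89.3 (Zfp42). Those of fibroblast markers had 24.8 (Dcn) to 87.4 (Col1a1), and those of cardiomyocyte markers 13.0 (Tnnt2) to 99.9 (Actn2). Myh6 and Col3a1 had none in WT. The share of all genes with such a peak is not given here. A peak at a gene does not show that the gene is expressed. The library codes in the peak names were consecutive in 8 lists and not in K365T and WT, and the part of this in the comparisons with WT was not tested.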

How the data were processed

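Omni-ATAC-seq was carried out on 20 samples. Per the submitters' processing notes, the tools were Trim Galore, Bowtie2, MACS2 and deepTools on mm10, without versions. The calling threshold and any shift of insertion sites are not stated there. The authors deposited 1 list per genotype, and its value column was read from its range as the fold enrichment (ratio) of MACS2. It was used only to rank peaks within a list. The lists carry no read totals, so depth is unknown.

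Peaks were joined at an overlap of at least 1 bp with Python 3.11.15, numpy 2.4.6 and pandas 2.3.3, and the joins were tested on simulated data and against bedtools 2.31.1. Exact 95% Clopper-Pearson intervals came from scipy 1.17.1, and figures from matplotlib 3.10.9. Where a count was 0, the limit given is 3 divided by the number tested, which is not the Clopper-Pearson bound. Background at equal strength was weighted over 20 classes of WT fold. Genes and start-site windows came from RefSeq tables of GRCm38.p6, which gave the strand of 8 genes. No p-value was computed. All 10 genes are named; sites are the strongest in each window, the strongest at a gene end, those of the stronger 50% in WT that a mutant lacked, and those found in at least 5 mutants and not in WT. The sites at Eomes (6.78 kb), Evx1 (19.4 kb), Msgn1 (17.2 kb) and the end of Mesp2, the second sites at the ends of Hand1 and Kdr, and the weak Eomes start were added after their values were seen. The genes and gene lists were chosen with earlier results of these data known.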

Additional observations from a re-analysis of the deposited data

How the results depend on the processing

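The values given were 24.7% of WT window pairs missing, 7.51% of mutant peaks without a WT overlap, 13.0% of shared pairs lower, 3.42% higher and 13.9% of gene-end pairs missing. With lists of equal size they were 14.4% missing (18.3% of all peaks, above the window interval), 8.87% without a WT overlap (17.5%, also above it), 6.87% lower, 12.0% higher and 8.55% of gene-end pairs, so the balance of lower against higher turned over. The summed intervals count the same sites once per mutant list as if independent, so they are too narrow. A background outside them is a description and not a test. With 5 kb on either side of the genes 19.4% were missing and 0.707% higher, and with 50 kb 15.9% were lower and 5.47% higher. With the H455R list in place of WT as the reference 19.8% were missing (23.3% of all peaks), 12.1% had no overlap (14.1%), 6.37% were lower (12.3%) and 9.39% higher (7.90%). A shift of 30 points in place of 20 gave 5.59% lower and 2.02% higher. All other alternatives for these 5 values lay within their exact intervals, including 2 chosen after seeing the data: leaving out the K365T list, and leaving out the 3 pairs of a gene and a list with a local shift in peak number. For single mutants 96 of 106 alternative values lay within the interval and 10 did not. Peaks without a WT overlap were 6.45% in Q418R and 16.9% in R339Q with lists of equal size, against 0% and 4.23% in the full lists. No paired analysis was possible because both replicates were combined in each list, and no replicate could be left out for the same reason. The cause of these differences was not tested, except that equal lists hold fewer weak peaks by construction. The lists give no depth, so a peak absent from a list may lie below its calling threshold.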
